A study of Homo sapiens with 2 samples.

Results

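Of 5 genes known as partners or targets of PROX1 in liver and in lymphatic vessels, HNF4A alone carried several PROX1 peaks in SW480R colon cancer cells. The genes were HNF4A, NR5A2, CYP7A1, FLT4 and FGFR3, and each was taken as a span of the hg18 genome that reaches about 50 kb beyond the gene on both sides. A peak was a member when its centre lay in a span. By this rule, 8 of the 23450 peaks in the deposited list were members: 5 at HNF4A, 1 each at CYP7A1, FLT4 and FGFR3, and 0 at NR5A2.

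The peaks came from chromatin immunoprecipitation and sequencing (ChIP-seq) with a goat antibody against human PROX1 in SW480R, a sub-population of the established human colon adenocarcinoma line SW480, grown with no treatment named in the labels. Chromatin of 3 independent immunoprecipitations was pooled into 1 library and set against 1 library of input DNA, taken from cells of the same kind without antibody. With 1 library of each kind there was no replicate spread and no test between conditions. Unless a limit on a count of 0 is named, intervals below are exact two-sided 95% intervals (Poisson for rates, Clopper-Pearson for shares). They cover counting error in the number of peaks only and take neighbouring peaks as independent. Peaks cluster in this list, so the Poisson intervals are likely too narrow.

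The spans were chr20:42367000-42544000 for HNF4A, chr1:198213000-198464000 for NR5A2, chr8:59515000-59626000 for CYP7A1, chr5:179911000-180060000 for FLT4 and chr4:1714000-1831000 for FGFR3. Taking 50 kb off each side gave approximate gene edges, and distances to them share that inaccuracy. An hg18 gene annotation was not used here, so exons, introns and untranslated regions are not assigned to peaks. Neighbouring genes were taken by their order alone from RefSeq on GRCh38.p14. Peak positions are copied unchanged from the list, which does not show whether starts count from 0 or 1.

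PROX1 is a homeodomain protein. In hepatocytes it binds the nuclear receptors HNF4A and NR5A2 (also called LRH-1) and lowers transcription of their target CYP7A1, while in endothelial cells it drives the lymphatic fate and raises FLT4 (VEGFR-3) and FGFR3. HNF4A and NR5A2 are also active in intestinal epithelium, the tissue from which colorectal tumours arise. Transcript levels were not part of the data, so a peak here is a place where PROX1 chromatin was enriched and carries no direction of regulation.

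HNF4A encodes a nuclear receptor that controls hepatocyte and enterocyte genes and is read from a pair of promoters, an upstream one (P2) and one closer to the body of the gene (P1). RefSeq holds an entry for each, and both are shown because the lowest HNF4A peak lay within 0.291 kb of the approximate start of the gene. Each run gives 250 bases before the start in lower case and the first 50 transcribed bases in capitals, on the plus strand of GRCh38.p14. P2 is at chr20:44355449-44355748 and P1 at chr20:44400989-44401288.
HNF4A P2: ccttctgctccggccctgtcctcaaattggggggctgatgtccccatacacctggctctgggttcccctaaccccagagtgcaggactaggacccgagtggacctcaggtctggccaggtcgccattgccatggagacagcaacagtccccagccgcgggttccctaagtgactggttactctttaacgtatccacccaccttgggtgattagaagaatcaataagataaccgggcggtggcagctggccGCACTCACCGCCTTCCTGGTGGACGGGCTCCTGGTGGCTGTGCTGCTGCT
HNF4A P1: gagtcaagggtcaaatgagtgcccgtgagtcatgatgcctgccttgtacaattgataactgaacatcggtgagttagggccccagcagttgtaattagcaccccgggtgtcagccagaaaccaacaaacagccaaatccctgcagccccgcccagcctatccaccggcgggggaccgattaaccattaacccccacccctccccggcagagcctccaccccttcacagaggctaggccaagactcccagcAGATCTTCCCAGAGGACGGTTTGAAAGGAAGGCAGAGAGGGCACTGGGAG
These are reference sequences of another build than the peak list, so the peak was not placed on them. The share of G and C was 60.0% in the P2 window and 57.7% in the P1 window, against a median of 58.7% over all 35116 promoter windows of the table. Both strands were searched for AAGGTCA, a motif bound by NR5A2, and for AAAGTCC, the core of a site bound by HNF4A, and no stretch can match both at the same position. Neither was found in the 2 HNF4A windows. Among all promoter windows, AAGGTCA was present in 3.92% and AAAGTCC in 3.71%. Of the other members, NR5A2 had 2 entries, the second of which held 1 match to AAAGTCC, and the single FGFR3 entry held none of either motif.

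By their centres, all 5 HNF4A peaks lay between the approximate ends of the gene, and 0 lay in the 50 kb on either side. The peak nearest the approximate start was closer to it than that edge is known, so its place inside the gene is not certain. The first, at chr20:42417171-42417411, was 240 bp wide, the widest of the 8 members. It had 78 tags and a fold over input of 34.08, and its centre was 0.291 kb inside the approximate start. The second, at chr20:42420871-42420911, lay 3.89 kb inside and had 92 tags at a fold of 46.11. This pair formed 1 run, defined as peaks whose edges lie within 10 kb, with a gap of 3.46 kb.

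The middle of HNF4A held a weaker and a stronger peak side by side. The weaker, at chr20:42446591-42446631, had 35 tags and a fold of 17.54, the lowest of the gene. The stronger, at chr20:42448711-42448751, had 44 tags and a fold of 44.11. They were 2.08 kb apart and lay 29.6 and 31.7 kb inside the approximate start, which made them the second run of the gene. A gap of 25.7 kb separated this run from the first. Neighbours this close were ordinary in the list. Of all nuclear peaks, 55.8% were as isolated as the first pair and 60.7% as isolated as the second, and the others had a closer neighbour.

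The strongest PROX1 peak at HNF4A stood alone in the second part of the gene. At chr20:42469671-42469771 it had 180 tags and a fold of 60.15, with its centre 52.7 kb inside the approximate start and 24.3 kb before the approximate end. It held 42.0% of the 429 tags in the HNF4A peaks, while the run near the start held 39.6% and the run in the middle 18.4%. Among nuclear peaks, 1.08% had as many tags or more and 4.72% had as high a fold. By fold it ranked 44 of the 782 peaks on chromosome 20, and by tags 30. The nearest other peak was 20.9 kb away.

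**Figure D1:**
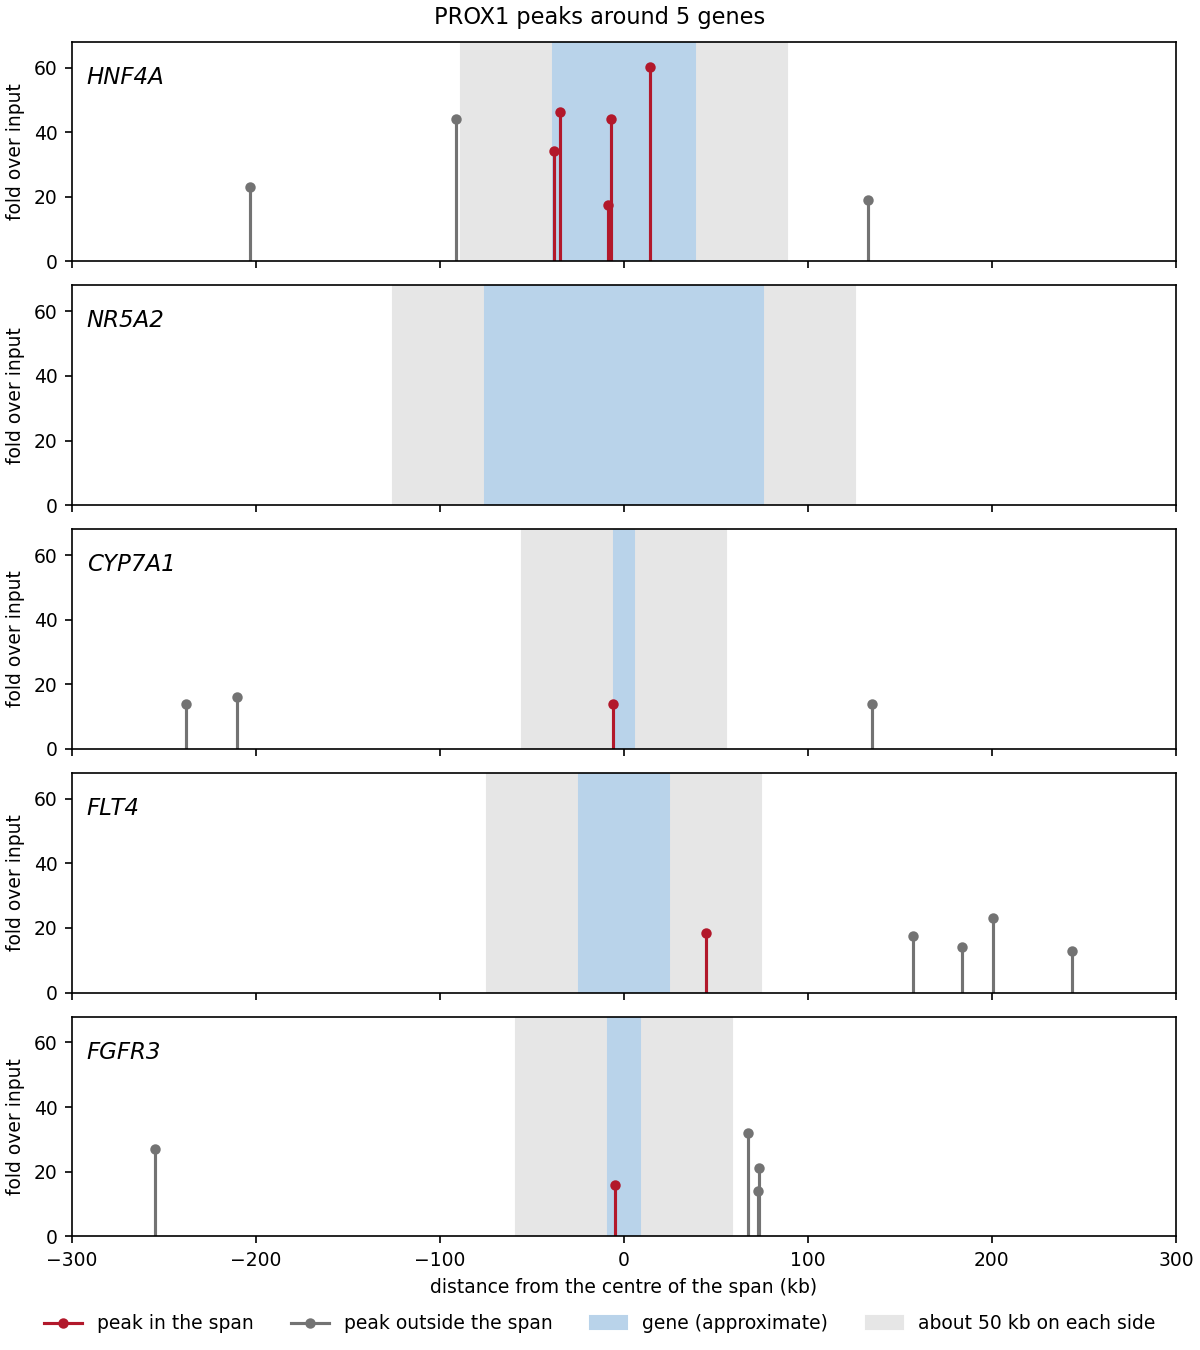
PROX1 peaks within 300 kb of the centre of each span, with distance from that centre in kb on the x axis and the deposited fold over input on the y axis. Red stems are peaks in the span, grey stems peaks outside it, blue marks the approximate gene and grey shading about 50 kb on each side. The 5 HNF4A peaks fall inside the approximate gene, the first of them at its edge, with folds from 17.54 to 60.15. The NR5A2 panel holds 0 peaks.

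HNF4A held more peaks per kb than the genome as a whole. Its 5 peaks over 177 kb gave 0.0282 peaks per kb (interval 0.00917 to 0.0659), against 0.00760 per kb over the nuclear genome, a ratio of 3.72 (1.21 to 8.67). At the genome rate the span would hold 1.35 peaks. When the nuclear genome was tiled in windows of the same length, 8.36% of the 17390 windows held 5 or more peaks, so the count at HNF4A was in the upper part of the range but not rare. Windows with 429 tags or more in their peaks were scarcer, at 1.89%. The tags in HNF4A peaks came to 2.42 per kb of span over 460 bp of peaks, 8.45 times the genome's 0.287 per kb. Peaks of chromosome 20 carried more tags in general, with a median of 32 against 25 in all nuclear peaks. The tag rate of HNF4A was not set against that chromosome.

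Chromosome 20 as a whole was rich in peaks, with 0.0125 per kb, and against it the HNF4A ratio was 2.26. The interval of the HNF4A rate (0.00917 to 0.0659 per kb) holds that chromosome rate, so HNF4A did not differ from its own chromosome beyond counting error. With the approximate gene alone, without the 50 kb on each side, the HNF4A ratio to the genome was 8.54. That value counts the peak at the approximate start as inside and leaves out flanks without a peak. With the 11708 better-ranked nuclear peaks the ratio was 5.95, on 4 peaks. It was 3.48 with about 75 kb on each side and 3.45 with the genome length taken without gaps. Just below the span, 2.45 kb outside its lower edge and on the side of the neighbouring gene R3HDML, lay a further peak at chr20:42364431-42364551 with 44 tags and a fold of 44.11. On the side of TTPAL the next peak was 44.4 kb beyond the span, with 19 tags and a fold of 19.05. Spans of equal length directly below and above HNF4A held 2 and 1 peaks. Over 1 Mb around its centre the count was 10 peaks, 1.32 times the genome rate (0.631 to 2.42), an interval that holds the genome rate.

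NR5A2, which encodes a nuclear receptor that drives bile acid synthesis genes in liver and proliferation in intestinal crypts, held 0 peaks in 251 kb. Taken as a one-sided limit of 3 peaks, unlike the two-sided intervals of the other spans, a count of 0 allows 0.0120 per kb, 1.57 times the genome rate, so the genome rate lies within what this count allows. The genome rate would give 1.91 peaks in this length. An empty span was common in this list, since 47.3% of the 12259 windows of 251 kb held no peak. The empty stretch around NR5A2 ran well past the span. It reached from chr1:197995391-197995431 (41 tags, fold 41.1), which is 218 kb below the span on the side of PTPRC, to chr1:198646471-198646511 (15 tags, fold 15.04), which is 182 kb above it on the side of ZNF281.

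This stretch without a peak was 651 kb long. Of the 23393 gaps between neighbouring nuclear peaks, 789 (3.37%) were as long or longer, and together they covered 42.2% of the length in gaps. The median gap was 26.2 kb. On chromosome 1 there were 49 such gaps of 2261. No peak can be listed in unsequenced stretches of hg18, and these were not taken out of the gaps. Some of the long gaps may span them, so these shares may be too high. Within 1 Mb around the centre of NR5A2 there were 11 peaks, 1.45 times the genome rate (0.722 to 2.59), all of them outside the gap. Only peaks are listed, so the level of PROX1 signal over NR5A2 below the authors' threshold could not be read.

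CYP7A1 encodes cholesterol 7-alpha-hydroxylase, the rate-limiting enzyme of classical bile acid synthesis. Its span held 1 peak, at chr8:59564351-59564391, with 14 tags and a fold of 14.03. This was the weakest of the 8 members, close to the lowest values of the nuclear list, 13 tags and a fold of 13.03. Among nuclear peaks, 92.2% had as many tags or more. The peak lay 0.629 kb outside the approximate lower edge, on the side of UBXN2B. CYP7A1 is read toward lower coordinates, so this is the 3' end of the gene, and no peak was listed at its promoter side within the span. The nearest other peak was 141 kb away, and 7.13% of nuclear peaks were as isolated.

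FLT4 encodes the receptor for the lymphatic growth factor VEGF-C. Its 1 peak, at chr5:180030331-180030371, had 37 tags and a fold of 18.55. It lay outside the gene, 20.4 kb past the approximate upper edge. FLT4 is also read toward lower coordinates, so this is the upstream side, facing OR2Y1, and 0 peaks lay between the approximate ends of the gene. The tag count was above the nuclear median of 25, while the fold was just below the nuclear median of 19.05. The nearest other peak was 112 kb away, and the next one below the span was 254 kb from it.

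FGFR3 encodes a receptor for fibroblast growth factors. Its 1 peak, at chr4:1767391-1767431, had 16 tags and a fold of 16.04, and 71.0% of nuclear peaks had as high a fold or higher. It lay within the gene, 3.41 kb inside the approximate start. The nearest other peak was 72.6 kb away. A group of 3 peaks began 8.99 kb above the span, on the side of LETM1, and the first of them, at chr4:1839991-1840031, had 32 tags and a fold of 32.08. With 75 kb in place of 50 kb on each side these would count for FGFR3, giving 4 peaks and a ratio of 3.15 to the genome.

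The 3 spans with a single peak did not differ from the genome in peak density beyond counting error. Their spans held 1.19 (CYP7A1, interval 0.0300 to 6.60), 0.883 (FLT4, 0.0224 to 4.92) and 1.12 (FGFR3, 0.0285 to 6.26) times the genome rate. Such counts were ordinary in this list: 34.7% of windows of 111 kb, 41.2% of windows of 149 kb and 35.9% of windows of 117 kb held 1 or more peaks. Chromosome 4 was sparse, with 0.00417 peaks per kb, and against it the FGFR3 ratio was 2.05.

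**Figure D2:**
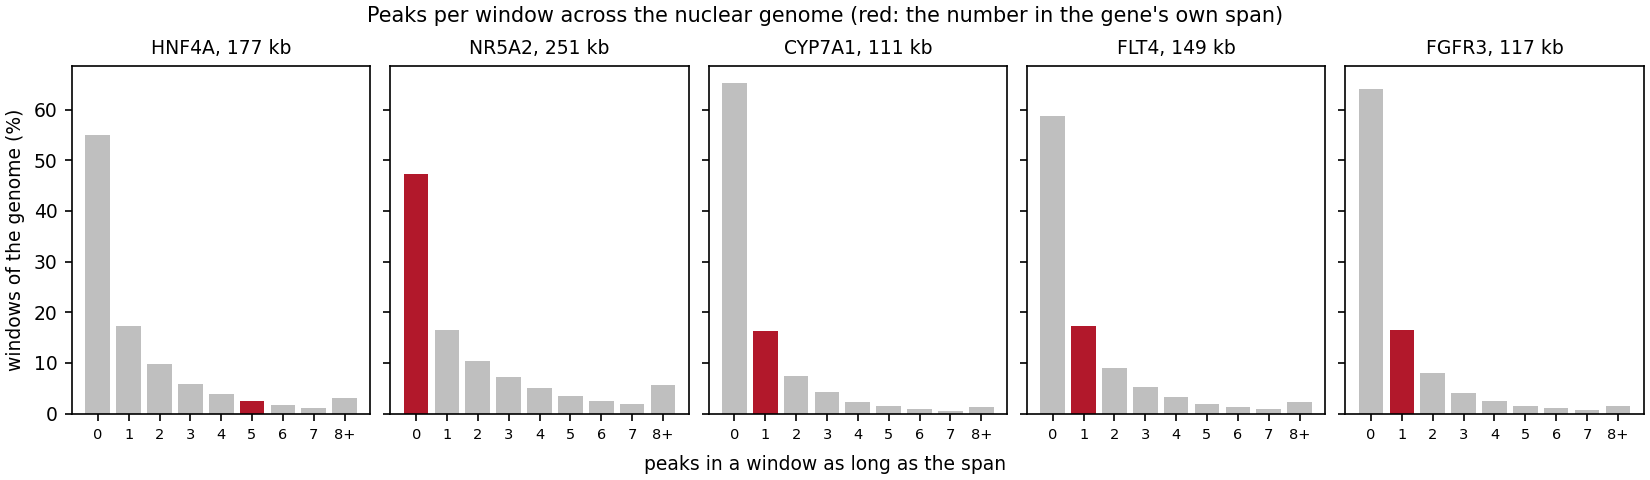
Share of genome windows (y axis, %) by the number of peaks they hold (x axis), for windows as long as each span, with the number in the gene's own span in red. The 5 peaks of HNF4A lie in the thin upper part, while 0 peaks (NR5A2) is the most frequent value and 1 peak (CYP7A1, FLT4, FGFR3) the next.

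The 5 spans together held 8 peaks in 805 kb, or 0.00994 per kb, 1.31 times the genome rate (0.564 to 2.58), with 6.12 peaks at that rate. As a set these genes were therefore not denser in PROX1 peaks than the genome beyond counting error. Without HNF4A, left out after its count was seen, the other 4 spans held 3 peaks in 628 kb, 0.628 times the genome rate (0.130 to 1.84). The ratio interval of HNF4A, 1.21 to 8.67, overlapped those of CYP7A1, FLT4 and FGFR3, each of which rests on 1 peak. It also overlapped the two-sided interval of NR5A2, 0 to 1.93, which rests on 0 peaks.

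**Figure D3:**
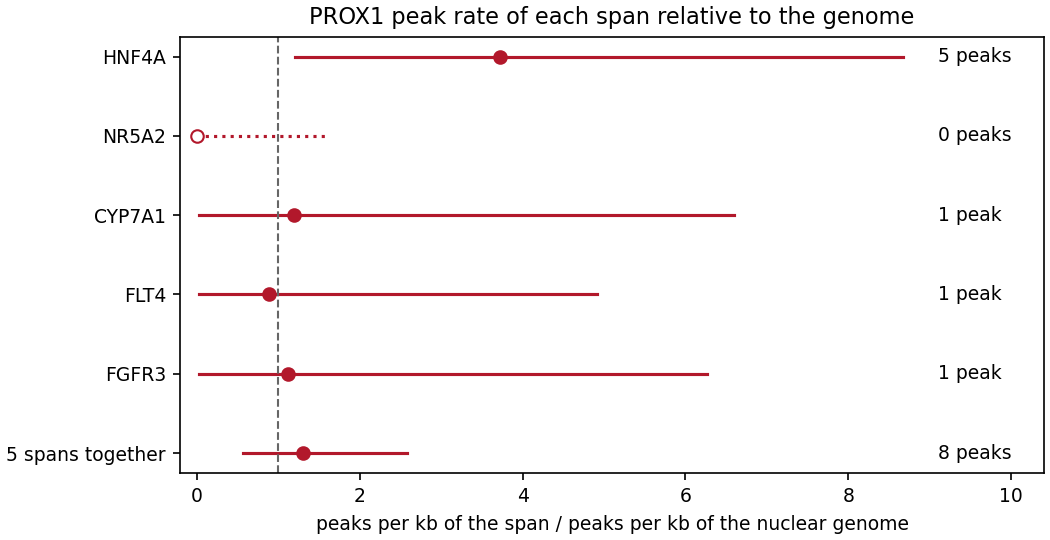
Peaks per kb of each span divided by peaks per kb of the nuclear genome (x axis), with exact two-sided 95% Poisson intervals as bars. The dotted line for NR5A2 is instead a one-sided limit of 3 peaks, which ends at 1.57, and the dashed line marks the genome rate. HNF4A, at 3.72, is the one row whose bar lies above that line. The bars take neighbouring peaks as independent and are likely too narrow. Of genome windows of 177 kb, 54.9% held no peak and 8.36% held 5 or more.

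The HNF4A peaks were also stronger than the other members. A peak was called strong when its fold reached 26.06, 2 times the lowest in the list. At HNF4A 4 of 5 peaks were strong (80.0%, interval 28.4 to 99.5), and at the other genes 0 of 3 (upper bound 70.8%), against 30.3% of all 23417 nuclear peaks and 35.3% of the 782 peaks of chromosome 20. Over the 8 members the share was 50% (15.7 to 84.3), an interval that holds the nuclear share. Median tags were 78 in HNF4A peaks, 16 in the other 3 members and 25 in all nuclear peaks. Median folds were 44.11, 16.04 and 19.05 in the same groups, and the lowest HNF4A fold, 17.54, was below that of FLT4, 18.55. With 5 and 3 peaks from 1 library, these differences are a description and were not tested.

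Folds and tags did not rank the HNF4A peaks alike. The fold behaves as a ratio of ChIP to input tags, so input tags were inferred from it. For each peak they were taken as its ChIP tags times 1.0025 divided by its fold. This restates the ratio of tags to fold and is not a separate measurement. The inferred input came to 3 for the peak with 180 tags, 2 for the peaks with 92 and 35 tags and 1 for the peak with 44 tags. For the wide first peak the inferred input was 2.295, which is not a whole number, so its input is an approximation. The CYP7A1 and FGFR3 peaks had an inferred input of 1 and the FLT4 peak 2. An input of 1, the lowest, was found in 71.9% of nuclear peaks and may stand for 0 or 1 tags. At HNF4A, 4 of the peaks thus had an inferred input above the lowest value. Whether extra copies of this stretch of chromosome 20 in SW480R cells had a part in these tag counts was not tested.

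**Figure D4:**
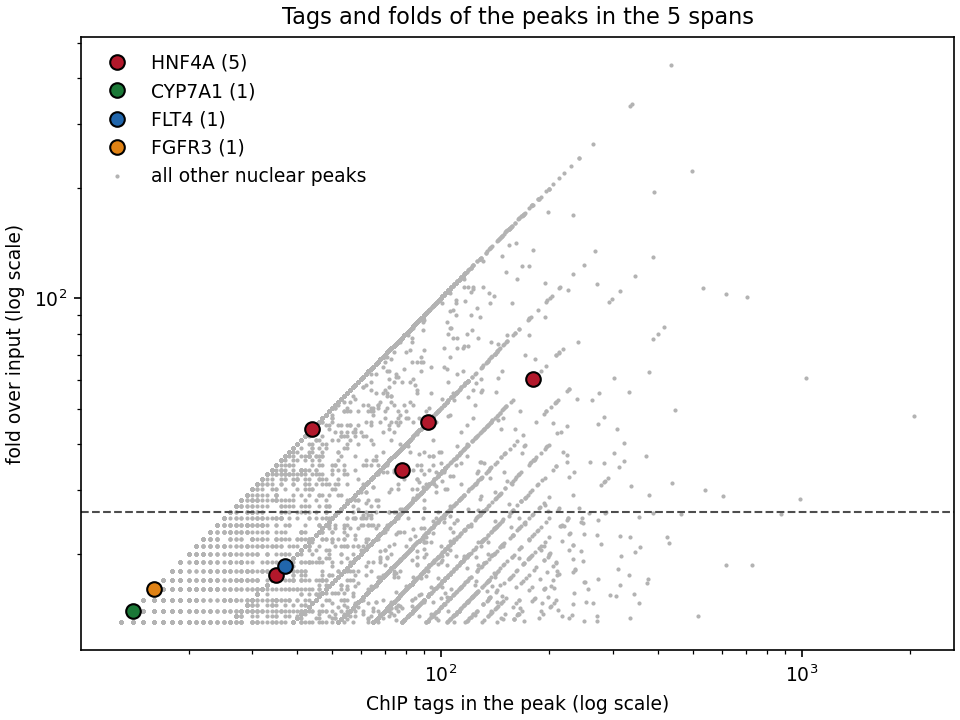
ChIP tags (x axis, log scale) against fold over input (y axis, log scale) for the 8 members in colour and all nuclear peaks in grey, with the dashed line at a fold of 26.06. Of the members, 4 HNF4A peaks lie above the line, and the fifth lies beside the FLT4 peak below it. The grey diagonals are peaks with the same inferred number of input tags.

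The deposited p-values follow the fold and add no further order. They were 4.3e-05, 8.9e-05, 9.1e-05, 0.00016 and 0.00064 for the HNF4A peaks, 0.00057 for FLT4, 0.00071 for FGFR3 and 0.00088 for CYP7A1, where the list reaches up to 0.00099.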

How the data were processed

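One ChIP library of PROX1 (3 immunoprecipitations pooled, per the series' design text) and 1 input library of SW480R cells were grouped by their titles. The submitters' processing notes name hg18 as the build. For the aligner, peak caller, threshold and depth of either library, the sources used here give nothing. The deposited list has no header, so units were read from its values: tag counts per peak are whole numbers without scaling. The fold in the deposited list behaves as a ratio of ChIP to input tags, and the deposited p-value may be a p or a q. Reads carry no molecular identifiers, so tags are not independent molecules.

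The 33 mitochondrial peaks were left out of all rates. Rates used hg18 chromosome lengths (GenomeInfoDb 1.38.1) and contigs (IRanges 2.36.0, R 4.3.3). Windows of each span's length were tiled from the first base of each chromosome. Computation used Python 3.11.15, numpy 2.4.6, scipy 1.17.1, pandas 2.3.3 and matplotlib 3.10.9, and counting was tested on simulated data. Promoter sequences are RefSeq's (GRCh38.p14), and entries were present for 3 of the 5 genes. All 5 genes are named, and every member peak is given. The genes and spans were chosen with earlier results of these data known. A wider list of liver and lymphatic genes was not analysed here, since it needed an hg18 annotation.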

Additional observations from a re-analysis of the deposited data

How the results depend on the processing

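Of 70 alternative values, 51 stayed within the counting interval of the value they vary (for the number of runs, within 1.5 times) and 19 did not. With the approximate gene alone, the ratio to the genome was 0 for CYP7A1, 0 for FLT4, 7.74 for FGFR3 and 2.59 for the 5 spans together. The value for CYP7A1 is not certain. Its peak lay 0.629 kb outside the approximate edge, closer than that edge is known, and was left out. With the 11708 better-ranked peaks it was 0 for CYP7A1, 0 for FLT4 and 0 for FGFR3, whose single peaks are not among them. The HNF4A ratio ranged from 2.26 to 8.54 under the 8 alternatives of the span, the peaks and the genome rate. The NR5A2 ratio was 0 in all 8, but none of them could have given another value. Its nearest peaks lay 218 and 182 kb outside the span, beyond the reach of every alternative. These 8 values are among the 51 that stayed and say nothing about how firm the NR5A2 count is. As many peaks as at HNF4A were held by 18.5% of windows with 1 or more peaks and 15.3% of chromosome 20 windows. On the own chromosome, windows like the span were 41.2% for NR5A2, 32.2% for CYP7A1 and 24.4% for FGFR3. Within contigs, an alternative added after seeing the data, they were 9.05% for HNF4A, 42.9% for NR5A2, 37.5% for CYP7A1, 44.5% for FLT4 and 38.8% for FGFR3. The 2 runs became 0 when peaks were joined within 1 kb and 1 when joined within 50 kb, where the 5 HNF4A peaks form a single run. The share of strong peaks was 37.5% at 3 times the lowest fold (13.5% of nuclear peaks) and 50% at 1.5 times (49.4%), by tags (30.9%) and with peaks within 1 kb counted once (32.8%). Restricting windows to those with a peak was not run for the 4 other genes, where it gives all or none by construction. No paired analysis was possible because each kind of library has 1 sample. Depth is unknown, so the limit on the weak peaks and on NR5A2 is the authors' threshold.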
